A study of Mus musculus with 14 samples.

Results

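The response of EpH4 cells to TGF-β was examined in 4 of the 14 libraries of the series, chosen by their labels as those of EpH4 cells, with 2 libraries of TGF-β-treated and 2 of untreated cells. The EpH4 line is an epithelial line from the mammary gland of the mouse that carries no introduced oncogene. The treated cells had received TGF-β3 (1 ng/ml) for 48 h and the others were left untreated for the same time, both in medium with 10% fetal bovine serum. EpRas cells, the derivative of EpH4 transformed with H-RasG12V, were used for the shared estimate of the spread and to see where their response differed. They had received the same dose for the same time in medium with 4% serum, with 2 libraries for each condition, so that transformation and serum cannot be told apart in any difference between the lines. The libraries of a group are described as biological replicates, but how the cultures were kept apart is not described, and p-values measure only the spread between these libraries.

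TGF-β binds a pair of receptor kinases, which phosphorylate Smad2 and Smad3. These enter the nucleus with Smad4 and act on genes together with other transcription factors, among them those of the AP-1 family. In epithelial cells TGF-β is known to slow division, to raise production of extracellular matrix and, in some cells, to start epithelial-mesenchymal transition (EMT), in which junction proteins such as E-cadherin are replaced by mesenchymal ones such as N-cadherin and vimentin. Inhibitory Smads and related proteins are induced by the pathway and restrain it.

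The values are FPKM, in which the fragments of a gene are divided by its exon length and by all mapped fragments of the library, and therefore allow levels to be compared between genes. From the steps between low values, the relative depth of the 4 EpH4 libraries was 0.722 to 1.36, and a level of 5 FPKM corresponded to about 46.1 to 86.6 reads (medians over genes). Across genes, the 2 libraries of a group correlated, although genes are not independent replicates, with r = 0.964 in untreated and 0.982 in TGF-β-treated cells on the log2(FPKM + 1) scale. In EpRas cells r was 0.957 without and 0.9125 with TGF-β. The median standard deviation within a group was 0.146 and 0.091 in EpH4 cells and 0.147 and 0.214 in EpRas cells, without and with TGF-β. The standard errors and p-values below use a spread shared by these groups, which includes the wider one of treated EpRas cells. Of 12 genes that define epithelial cells, 11 were expressed, and Krt19 was listed at 0 FPKM. Krt7, Krt8 and Krt18, the keratins of simple epithelia, lay between 703 and 5185 FPKM, and Epcam, an epithelial adhesion molecule, between 285 and 534 FPKM over the 4 libraries. Of 11 immune markers, 6 were listed at 0 FPKM in all 4 libraries, among them Ptprc, Itgam and Tyrobp, and the endothelial markers summed to at most 0.624 FPKM in a library. Of 13 fibroblast and adipocyte markers, Dcn, Lum, Thy1 and Dpt were at 0 FPKM, while Col1a1, Col1a2, Pdgfrb and Fabp4 reached 5 FPKM in a library and are described below.

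TGF-β increased 590 genes and decreased 265 of 9100 genes whose maximum over the 8 untransfected libraries was at least 5 FPKM. These are 6.48% and 2.91% of the genes tested, with limma on log2(FPKM + 1), a spread estimated over all 8 libraries and Benjamini-Hochberg adjusted p under 0.05. All log2 fold changes below are on this scale, which brings those of lowly expressed genes closer to 0, and are given ± their standard error, with 2 libraries per group. In each of these 855 genes (9.4%) both treated libraries lay beyond both untreated ones, a separation that was also present upwards in 30.2% and downwards in 30.4% of all genes tested. Changes of at least 1 on the log2 scale were more frequent among the increases, with 370 genes, than among the decreases, with 118 genes. The median of all genes tested was −0.02. A fit without 1 of the EpH4 libraries assumes that the remaining one varies like the other groups, and 171 of the increases and 45 of the decreases passed the test without any 1 of the 4, while no gene of the 855 changed its direction under an alternative. Of the genes tested, 156 reached 5 FPKM only in treated EpH4 libraries, of which 77 were increased, and 119 only in untreated ones, of which 31 were decreased, and such genes had to differ in order to be tested. In what follows, genes are grouped by function, and the number that passed the test is to be read beside the 6.48% and 2.91% of all genes.

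**Figure D1:**
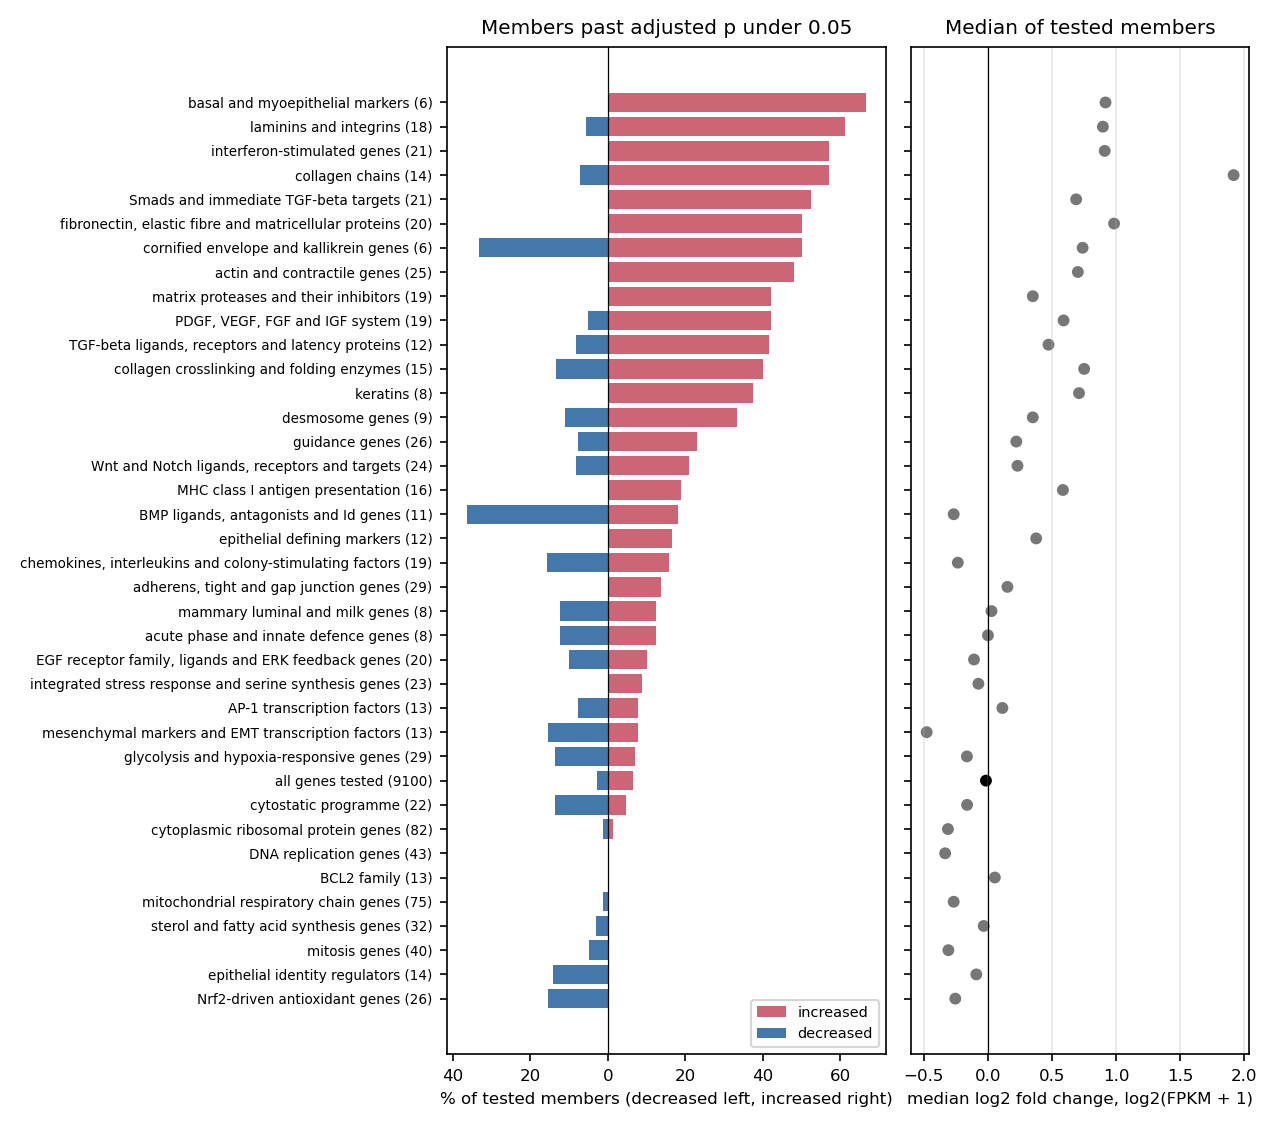
For each functional list with at least 5 tested members (number in parentheses), the left panel shows the percentage of tested members that were increased (right, red) or decreased (left, blue) by TGF-β in EpH4 cells at a limma adjusted p under 0.05, and the right panel the median log2 fold change. Matrix, adhesion, contractile and interferon-stimulated lists lie above the values of all 9100 genes (6.48% increased, 2.91% decreased, black point at −0.02), whereas replication genes have no call.

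The 15 largest increases held genes for secreted proteins, such as Mmp9 and Clu, and for membrane proteins, such as Mcam, Gpr123 and Lrrc32. Mmp9, the gelatinase that cleaves denatured collagen and type IV collagen (on mm10 at chr2:164940780-164955850), was at 40.6 and 43.3 FPKM in the untreated libraries and at 3933 and 3205 FPKM in the TGF-β-treated ones. The groups were far apart, and the log2 fold change was 6.37 ± 0.29 (adjusted p = 6.07e-05). Adamts4, an aggrecan-cleaving protease (chr1:171250421-171260637), was at 1.42 and 2.10 FPKM without and 78.1 and 75.6 FPKM with TGF-β (4.83 ± 0.23, adjusted p = 6.07e-05). Clu, which encodes the extracellular chaperone clusterin (chr14:65968483-65981547), was at 70.2 and 80.7 FPKM without and 1591 and 1864 FPKM with TGF-β (4.50 ± 0.29, adjusted p = 0.000197). With these levels Mmp9 and Clu were among the abundant transcripts of treated cells, whereas Adamts4 was low in untreated cells. Olfm2, a secreted olfactomedin, was covered by 3 and 10 reads in the untreated and 201 and 298 reads in the treated libraries. Gpr123, an adhesion G protein-coupled receptor, had 3 and 2 reads without and 206 and 271 reads with TGF-β. The change of both was thus from a few reads to many. In the treated cells Olfm2 was at 35.8 and 35.7 FPKM and Gpr123 at 10.7 and 9.43 FPKM (log2 fold change 4.48 ± 0.27 and 3.35 ± 0.15). Both genes reached 5 FPKM only in treated EpH4 libraries and had to be high there to be tested. Mcam, an adhesion molecule of the immunoglobulin family, went from 6.14 and 6.67 FPKM to 82.3 and 81.5 FPKM (3.49 ± 0.14, adjusted p = 5.71e-05). Ccl17, a chemokine that attracts T cells through CCR4, rested on 0 and 1 reads in the untreated and 15 and 22 reads in the treated libraries, with 11.3 and 11.2 FPKM in the latter (adjusted p = 0.000778). Ctgf, Mmp13, Tnc, Lrrc32, Col27a1, Wnt11 and Col1a1 were also among the 15 largest increases and are described with their groups.

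**Figure D2:**
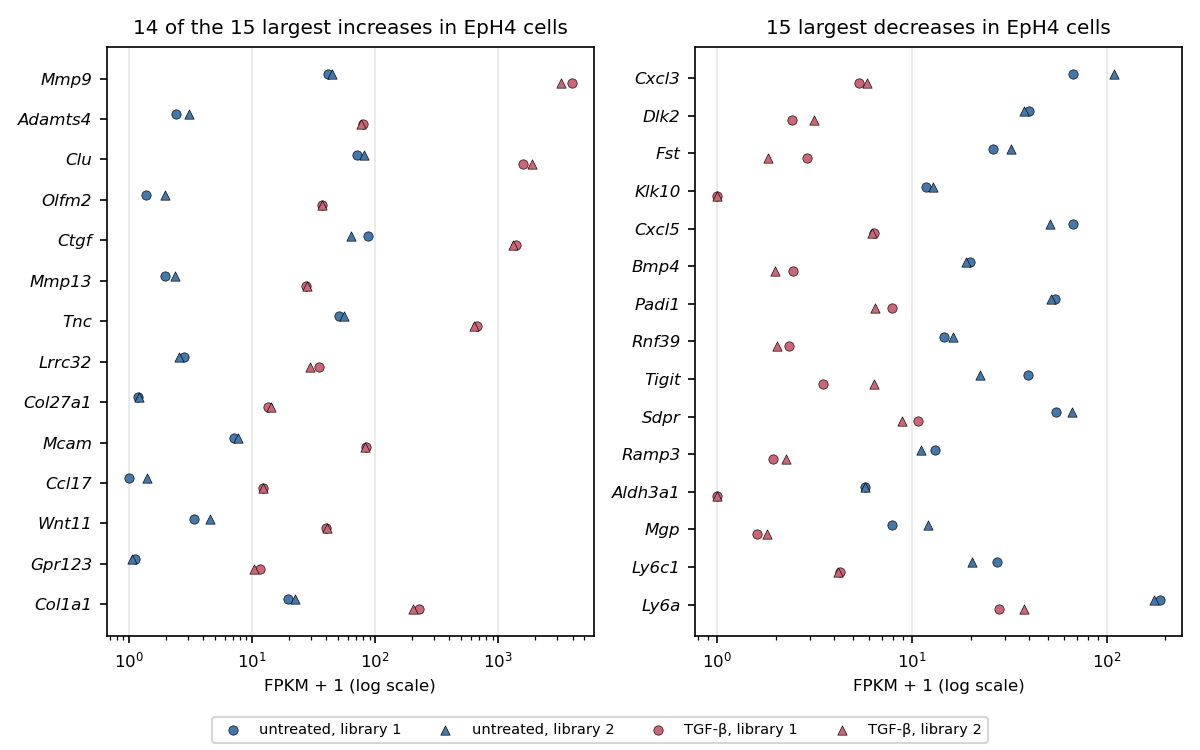
Expression level in each EpH4 library (FPKM + 1, log scale) of 14 of the 15 genes with the largest increase (left) and of the 15 with the largest decrease (right), with untreated libraries in blue and TGF-β-treated libraries in red. For each gene the treated points lie apart from the untreated ones, over the widest span for Mmp9, from 40.6 to 3933 FPKM.

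The sequences before the transcription start were examined for the letters of motifs to which AP-1 and Smad proteins are known to bind. Of the 15 largest increases, 7 had promoters in the RefSeq table (GRCm38.p6, 11 promoters), and those of the 4 genes with an AP-1 or Smad match are shown, 5′ to 3′, as the 250 bases before the start with the match in capitals. Positions are counted back from the start. Mmp13 (chr9:7272264-7272513, plus strand) holds the AP-1 motif at position −35. The promoters of Tnc (chr4:64046937-64047186, minus strand), Olfm2 (chr9:20728230-20728479, minus strand) and Ccl17 (chr8:94810203-94810452, plus strand) hold the Smad motif or its reverse complement at positions −71, −27 and −194.
Mmp13: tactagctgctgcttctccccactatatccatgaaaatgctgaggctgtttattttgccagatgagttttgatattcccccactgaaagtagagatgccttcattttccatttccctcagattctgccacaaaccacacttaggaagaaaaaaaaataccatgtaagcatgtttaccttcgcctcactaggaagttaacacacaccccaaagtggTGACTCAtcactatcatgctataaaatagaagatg
Tnc: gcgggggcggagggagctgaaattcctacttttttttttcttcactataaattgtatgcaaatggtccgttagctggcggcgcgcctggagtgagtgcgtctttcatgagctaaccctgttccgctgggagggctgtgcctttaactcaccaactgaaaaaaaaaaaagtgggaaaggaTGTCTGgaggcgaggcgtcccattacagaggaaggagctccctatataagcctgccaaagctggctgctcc
Olfm2: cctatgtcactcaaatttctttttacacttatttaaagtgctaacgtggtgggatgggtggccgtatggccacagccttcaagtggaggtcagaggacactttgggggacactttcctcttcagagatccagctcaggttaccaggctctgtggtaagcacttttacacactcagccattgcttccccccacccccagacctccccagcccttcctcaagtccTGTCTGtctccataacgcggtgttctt
Ccl17: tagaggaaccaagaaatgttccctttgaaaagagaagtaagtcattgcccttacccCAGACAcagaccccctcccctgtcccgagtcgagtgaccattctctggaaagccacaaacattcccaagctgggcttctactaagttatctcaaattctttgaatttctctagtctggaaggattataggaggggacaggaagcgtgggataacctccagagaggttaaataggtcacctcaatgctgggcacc
Tnc and Olfm2 have further promoters in the table without such a match before the start. Over windows from 250 bases before to 50 bases after the start, and on both strands, the AP-1 motif TGANTCA was in 7.80% of the 551 promoters of increased genes, 6.17% of the 227 of decreased genes, 5.01% of the 8370 of all genes tested and 7.81% of all 32851 promoters of the table. The Smad motif CAGACA was in 20.9%, 12.3%, 14.97% and 21.0% of the same sets, and the palindrome GTCTAGAC in 0.363%, 0%, 0.215% and 0.213%. The ETS motif CCGGAA was in 12.7%, 24.2%, 29.6% and 14.9%. The shares of the AP-1 and Smad motifs among increased genes thus lay above those of all genes tested and close to those of all promoters of the table, without a test, and a match is a description of letters and not a binding site.

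Among the largest decreases were 2 chemokines that attract neutrophils. Cxcl3 was at 65.9 and 107 FPKM in the untreated and 4.36 and 4.89 FPKM in the TGF-β-treated libraries (−3.92 ± 0.25, adjusted p = 0.000192), from 314 and 694 and 15 and 25 reads. Cxcl5 was at 66.1 and 50.01 FPKM without and 5.36 and 5.24 FPKM with TGF-β (−3.22 ± 0.22, adjusted p = 0.000242). Both groups of libraries were well separated for either gene. Klk10, a kallikrein-related peptidase, had 10.8 and 11.9 FPKM in the untreated libraries and was listed at 0 FPKM in both treated ones (adjusted p = 6.07e-05). Aldh3a1, an aldehyde dehydrogenase, likewise had 4.77 and 4.75 FPKM in untreated cells and was listed at 0 FPKM in treated ones (adjusted p = 0.000217). Padi1, a peptidylarginine deiminase of epithelia, fell by 2.90 on the log2 scale from 53.4 and 50.97 to 6.89 and 5.44 FPKM, and Sdpr, the caveolar protein cavin-2, from 53.6 and 65.1 to 9.76 and 7.84 FPKM (−2.62 ± 0.18). Mgp, the matrix Gla protein that inhibits calcification, had 16 and 35 reads without and 1 and 2 reads with TGF-β (−2.52 ± 0.23, adjusted p = 0.000797). Ly6a and Ly6c1, surface proteins of the Ly6 family whose reads may be shared with near-identical relatives, were decreased, with log2 fold changes of −2.48 ± 0.35 and −2.48 ± 0.31, and Ly6a remained at 27.1 and 36.4 FPKM. Ramp3, a partner of the calcitonin receptor-like receptor, Rnf39, a RING finger protein, and Tigit, an inhibitory receptor known from T cells, had log2 fold changes of −2.54 ± 0.35, −2.83 ± 0.26 and −2.66 ± 0.40. Dlk2, Fst and Bmp4 complete the 15 and are described below. The calls of Ly6a and Ramp3 were lost without TGF-β-treated EpH4 library 1 (highest adjusted p = 0.0643 and 0.0590). The call of Tigit was lost without untreated EpH4 library 1 or TGF-β-treated EpH4 library 1 (highest adjusted p = 0.0675).

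Within the TGF-β pathway, Lrrc32, Inhba, Eng, Ltbp3 and Tgfb2 rose, whereas the type II receptor Tgfbr2 fell. Of 12 tested genes for ligands, receptors and latency proteins, 5 were increased and 1 was decreased, with a median log2 fold change of 0.47, and Lrrc32 and Tgfb2 reached 5 FPKM only in treated EpH4 libraries. Lrrc32 encodes GARP, which holds latent TGF-β at the cell surface (chr7:98489283-98502181). It was at 1.79 and 1.53 FPKM in the untreated and 34.1 and 28.5 FPKM in the treated libraries, from 38 and 44 and 523 and 649 reads, and the groups did not overlap (3.60 ± 0.16, adjusted p = 5.71e-05). Inhba, the subunit of activin A, rose by 1.35 ± 0.25 from 19.9 and 15.3 to 56.2 and 37.7 FPKM. Eng, the co-receptor endoglin, rose by 1.14 ± 0.26, Ltbp3, which binds latent TGF-β, by 0.73 ± 0.15, and the ligand Tgfb2 by 0.55 ± 0.14. Tgfbr2, which encodes the type II receptor, was at 67.5 and 80.2 FPKM without and 33.9 and 30.5 FPKM with TGF-β (−1.17 ± 0.16, adjusted p = 0.00565). Tgfb1 was at 8.82 and 11.7 FPKM without and 18.8 and 15.9 FPKM with TGF-β, but did not pass the test (0.72 ± 0.18, adjusted p = 0.0526), and the type I receptor Tgfbr1 had a log2 fold change of 0.06 ± 0.39 (adjusted p = 0.959). The calls of Eng and Tgfb2 were lost without any 1 of the 4 EpH4 libraries or either untreated EpRas library (highest adjusted p = 0.207 and 0.285). The call of Inhba was lost without either untreated EpH4 library or TGF-β-treated EpH4 library 1 (highest adjusted p = 0.151). The call of Ltbp3 was lost without any 1 of the 4 EpH4 libraries (highest adjusted p = 0.182). The call of Tgfbr2 was lost without TGF-β-treated EpH4 library 2 (highest adjusted p = 0.0707). Under other settings, the calls of Inhba, Eng and Tgfb2 did not hold either (adjusted p up to 0.0534, 0.0606 and 0.139).

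Of 21 tested Smads and immediate targets of the pathway, a list written from genes known to respond to TGF-β and with earlier results of these data known, 11 were increased and none was decreased, with a median of 0.69. Ctgf, a matricellular growth factor also named Ccn2, was at 85.7 and 62.2 FPKM in the untreated and 1388 and 1302 FPKM in the treated libraries (4.18 ± 0.20, adjusted p = 6.07e-05). It was already expressed in untreated cells, and the groups did not overlap. Pmepa1, an inhibitor that sequesters Smad proteins, rose by 2.06 ± 0.20 and Bhlhe40, a transcriptional repressor, by 1.80 ± 0.18. Smad7, the inhibitory Smad, rose by 1.39 ± 0.20 from 6.31 and 7.58 to 21.8 and 17.8 FPKM, Skil by 1.03 ± 0.18 and Ski by 0.69 ± 0.15, the latter pair being corepressors of Smad proteins. Snai1, a repressor of Cdh1 in EMT, rose by 1.64 ± 0.26 from 12.3 and 7.44 to 32.9 and 31.2 FPKM, Junb, an AP-1 subunit, by 1.53 ± 0.31, Cyr61, a relative of Ctgf, by 1.36 ± 0.16, and Sox4 by 1.09 ± 0.23. Smad3 itself was at 28.7 and 33.2 FPKM without and 22.7 and 21.8 FPKM with TGF-β and did not pass the test (−0.46 ± 0.16, adjusted p = 0.125). The calls of Ski and Sox4 were lost without any 1 of the 4 EpH4 libraries or either untreated EpRas library (highest adjusted p = 0.262 and 0.212). The call of Smad7 was lost without TGF-β-treated EpH4 library 1 (highest adjusted p = 0.0712). The call of Skil was lost without any 1 of the 4 EpH4 libraries (highest adjusted p = 0.118). The call of Snai1 was lost without untreated EpH4 library 2 or either TGF-β-treated EpH4 library (highest adjusted p = 0.0890). The call of Junb was lost without untreated EpH4 library 1 or either TGF-β-treated EpH4 library (highest adjusted p = 0.157). For Sox4, the test was also missed under another setting (adjusted p up to 0.0505).

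Of 11 tested genes of the BMP branch, 4 were decreased and 2 increased (median −0.27). Bmp4, a ligand of this branch (chr14:46383520-46390669), was at 18.8 and 17.9 FPKM without and 1.45 and 0.973 FPKM with TGF-β (−3.14 ± 0.18, adjusted p = 0.000166). Fst encodes follistatin, which binds activin and BMPs, and was at 25.2 and 31.1 FPKM without and 1.88 and 0.817 FPKM with TGF-β (−3.66 ± 0.28, adjusted p = 0.000402), from 316 and 529 and 17 and 11 reads. The treated libraries of both genes lay far below the untreated ones, without overlap. Id2 and Msx2, transcriptional regulators downstream of BMPs, fell, with log2 fold changes of −1.39 and −0.65. Id1 and Id3 had log2 fold changes of −0.27 ± 0.25 (adjusted p = 0.581) and −0.29 ± 0.48 (adjusted p = 0.770). The receptor Bmpr2 rose by 0.91 ± 0.17. Bmp1, the other increase of this list (2.06 ± 0.23), is not a BMP but the protease that cleaves procollagen. The call of Id2 was lost without untreated EpH4 library 2 or either TGF-β-treated EpH4 library (highest adjusted p = 0.122). The call of Msx2 was lost without any 1 of the 4 EpH4 libraries or either untreated EpRas library (highest adjusted p = 0.265). The call of Bmpr2 was lost without any 1 of the 4 EpH4 libraries (highest adjusted p = 0.160). Another scaling, filter, pseudocount or model also ended the call of Msx2 (adjusted p up to 0.0566).

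Of 14 tested collagen chains, 8 were increased and 1 was decreased (median 1.92). Of the 8, Col1a2, Col27a1, Col4a3 and Col4a4 reached 5 FPKM only in treated EpH4 libraries, so that the count and the median rest partly on them. A further 29 of the 43 chains stayed under 5 FPKM, 12 of them at 0 FPKM in the 4 EpH4 libraries. Col1a1, the main chain of fibrillar type I collagen (chr11:94936224-94953042), was at 18.7 and 21.2 FPKM in the untreated and 224 and 200.04 FPKM in the treated libraries (3.34 ± 0.21, adjusted p = 0.000192). Its partner Col1a2 was at 2.38 and 3.53 FPKM without and 13.2 and 12.3 FPKM with TGF-β (1.81 ± 0.20, adjusted p = 0.00157), from 69 and 139 and 276 and 384 reads. The groups did not overlap for either chain, and Col1a2 stayed well below Col1a1 in every library. Col27a1, a fibrillar collagen of cartilage, was covered by 8 and 12 reads without and 395 and 617 reads with TGF-β, or 0.183 and 0.203 and 12.5 and 13.2 FPKM (3.54 ± 0.15). Col5a3, a chain of type V collagen, went from 6 and 6 to 317 and 327 reads (3.33 ± 0.21). Col7a1, the anchoring fibril collagen below epithelia, rose by 2.996 ± 0.22 from 2.40 and 2.86 to 29.5 and 26.5 FPKM. Of the basement membrane type IV chains, Col4a4 and Col4a3 rose by 2.58 ± 0.16 and 2.25 ± 0.17 and Col4a5 fell by 0.84 on the log2 scale. Col16a1 rose by 2.02 ± 0.22. Among 15 tested enzymes that fold and crosslink collagen, 6 were increased and 2 decreased (median 0.75). The increases were those of Bmp1, the lysyl oxidase Loxl3 (1.57 ± 0.23), the prolyl 3-hydroxylase Lepre1 (1.44 ± 0.26), the lysyl hydroxylases Plod2 (1.24 ± 0.18) and Plod1 (0.75 ± 0.16), and the collagen chaperone Serpinh1 (0.93 ± 0.15). The decreases were those of the lysyl oxidase Loxl4, from 40.1 and 44.97 to 13.3 and 13.8 FPKM (−1.58 ± 0.14), and of Leprel1 (−1.01 ± 0.17). The calls of Col4a5, Serpinh1 and Leprel1 were lost without any 1 of the 4 EpH4 libraries (highest adjusted p = 0.176, 0.120 and 0.115). The calls of Lepre1 and Plod2 were lost without untreated EpH4 library 2 or either TGF-β-treated EpH4 library (highest adjusted p = 0.143 and 0.0774). The call of Loxl3 was lost without untreated EpH4 library 2 or TGF-β-treated EpH4 library 2 (highest adjusted p = 0.0718). The call of Plod1 was lost without any 1 of the 4 EpH4 libraries or either untreated EpRas library (highest adjusted p = 0.231). Under other settings, the calls of Lepre1 and Plod1 did not hold either (adjusted p up to 0.0505 and 0.0534).

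Of 20 tested genes for fibronectin, elastic fibre and matricellular proteins, 10 were increased and none was decreased (median 0.98). Tnc, which encodes tenascin-C, was at 49.4 and 54.6 FPKM in the untreated and 672 and 629 FPKM in the treated libraries (3.62 ± 0.17, adjusted p = 6.07e-05). Postn, which encodes periostin, was at 89.5 and 92.9 FPKM without and 546 and 577 FPKM with TGF-β (2.61 ± 0.20, adjusted p = 0.000402). Fn1, the fibronectin gene, was the most abundant of these in untreated cells, at 240.2 and 284 FPKM, and reached 576 and 537 FPKM with TGF-β (1.09 ± 0.15, adjusted p = 0.00541). The treated libraries lay above the untreated ones for each of them, with the smallest fold change at the gene with the highest level in untreated cells. Wisp1, a relative of Ctgf, rose by 3.24 ± 0.33 from 1.77 and 2.16 to 26.5 and 27.3 FPKM, and Has2, a hyaluronan synthase, by 2.90 ± 0.25 from 2.23 and 2.92 to 24.6 and 26.6 FPKM. The syndecan Sdc3 rose by 1.72 ± 0.15, matrilin-2 (Matn2) by 1.64 ± 0.17, fibulin-2 (Fbln2) by 1.57 ± 0.15, osteonectin (Sparc) by 1.42 ± 0.19 and thrombospondin-1 (Thbs1), an activator of latent TGF-β, by 1.20 ± 0.16. The calls of Sparc and Thbs1 were lost without TGF-β-treated EpH4 library 1 (highest adjusted p = 0.0589 and 0.0637). The call of Fn1 was lost without either TGF-β-treated EpH4 library (highest adjusted p = 0.0712).

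Laminins and integrins, which bind epithelial cells to their basement membrane and matrix, held 11 increased genes and 1 decreased gene of 18 tested (median 0.90), with Itga7 and Itgb6 at 5 FPKM or more only in treated EpH4 libraries. Lama3 and Lamb3, chains of laminin-332, rose together. Lama3 was at 11.7 and 12.7 FPKM without and 48.1 and 42.7 FPKM with TGF-β (1.82 ± 0.16, adjusted p = 0.000673), and Lamb3 at 55.7 and 55.9 and 216 and 213 FPKM (1.92 ± 0.14, adjusted p = 0.000306). In both chains the libraries of a group lay close together. Lama5, a chain of other laminins, fell by 0.68 on the log2 scale, and Lamb1 rose by 0.75 ± 0.15. Itga5, the fibronectin receptor chain, was at 20.2 and 20.9 FPKM without and 119.6 and 113 FPKM with TGF-β (2.45 ± 0.17, adjusted p = 0.000242). Itga2, a collagen receptor chain, was at 5.93 and 5.91 FPKM without and 31.95 and 34.8 FPKM with TGF-β (2.31 ± 0.19, adjusted p = 0.000494). Itgav, Itgb5 and Itgb6, chains of the integrins that bind latent TGF-β or vitronectin, rose by 1.09 ± 0.17, 1.60 ± 0.17 and 0.97 ± 0.18. Itgb4, the hemidesmosome chain that binds laminin-332, rose by 0.95 ± 0.20 and the laminin receptor Itga7 by 0.84 ± 0.15. The calls of Lamb1, Itgav and Itgb4 were lost without any 1 of the 4 EpH4 libraries (highest adjusted p = 0.188, 0.0861 and 0.181). The calls of Itgb6 and Itga7 were lost without untreated EpH4 library 1 or either TGF-β-treated EpH4 library (highest adjusted p = 0.156 and 0.121). The call of Lama5 was lost without any 1 of the 4 EpH4 libraries or either untreated EpRas library (highest adjusted p = 0.267). For Lama5, Lamb1 and Itgb6, the test was also missed under another setting (adjusted p up to 0.0553, 0.0541 and 0.0579).

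Of 19 tested matrix proteases and inhibitors, 8 were increased and none was decreased, and the median was 0.35, and the other members did not pass the test. Besides Mmp9 and Adamts4, these were the collagenase Mmp13, at 0.964 and 1.37 FPKM without and 26.5 and 26.99 FPKM with TGF-β (3.69 ± 0.16, adjusted p = 5.71e-05), and the stromelysin Mmp10, at 1.69 and 3.07 and 31.4 and 30.5 FPKM (3.27 ± 0.21, adjusted p = 0.000192). Both were lowly expressed in untreated cells and clearly expressed in treated ones. The stromelysin Mmp3, which reached 5 FPKM only in treated EpH4 libraries, rose by 1.31 ± 0.27, and Mmp14, a membrane-bound collagenase, by 1.69 ± 0.16 from 74.2 and 59.9 to 226 and 208 FPKM. Plau, the urokinase that converts plasminogen to plasmin, rose by 2.001 ± 0.19 from 52.3 and 54.6 to 225 and 209.6 FPKM. Timp1, an inhibitor of metalloproteases, was at 230.03 and 231 FPKM without and 926 and 878 FPKM with TGF-β (1.96 ± 0.36, adjusted p = 0.0168), while its relative Timp3 had a log2 fold change of 0.00 ± 0.17. The call of Mmp3 was lost without any 1 of the 4 EpH4 libraries or either untreated EpRas library (highest adjusted p = 0.172). The call of Timp1 was lost without any 1 of the 4 EpH4 libraries (highest adjusted p = 0.129). Another scaling, filter, pseudocount or model also ended the call of Mmp3 (adjusted p up to 0.0711).

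Of 25 tested actin and contractile genes, 12 were increased and none was decreased (with quantile scaling 1 was, Fhl1), and 23 were higher and 1 was lower in either treated library than in the untreated ones (median 0.70), beside 30.2% higher and 30.4% lower of all genes tested. Acta2 reached 5 FPKM only in treated EpH4 libraries. Acta2, the smooth muscle actin of myoepithelial cells and myofibroblasts (chr19:34241090-34255590), was covered by 1 and 8 reads in the untreated and 55 and 86 reads in the treated libraries. It was thus nearly silent without TGF-β and low with it, at 8.22 and 8.64 FPKM (2.81 ± 0.21, adjusted p = 0.000344). Palld, which bundles actin, rose by 1.57 ± 0.14 from 13.97 and 15.1 to 46.98 and 43.3 FPKM and Csrp1, a protein of actin fibres, by 1.35 ± 0.15. The adapters Pdlim7, Fhl2, Pdlim5 and Zyx rose by 1.66 ± 0.40, 1.16 ± 0.17, 0.63 ± 0.14 and 0.80 ± 0.17. The structural genes Myh9, Actn1, Flna and Tpm4 rose by 1.02 ± 0.19, 0.82 ± 0.16, 0.70 ± 0.16 and 0.65 ± 0.15, and Mkl1, a coactivator of serum response factor, by 0.92 ± 0.18. The calls of Pdlim7, Pdlim5, Zyx, Flna and Tpm4 were lost without any 1 of the 4 EpH4 libraries or either untreated EpRas library (highest adjusted p = 0.222, 0.242, 0.206, 0.225 and 0.266). The calls of Myh9, Actn1 and Mkl1 were lost without any 1 of the 4 EpH4 libraries (highest adjusted p = 0.166, 0.181 and 0.169). The call of Fhl2 was lost without either TGF-β-treated EpH4 library (highest adjusted p = 0.0718). Under other settings, the calls of Pdlim7, Flna and Tpm4 did not hold either (adjusted p up to 0.0858, 0.0537 and 0.0678).

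**Figure D3:**
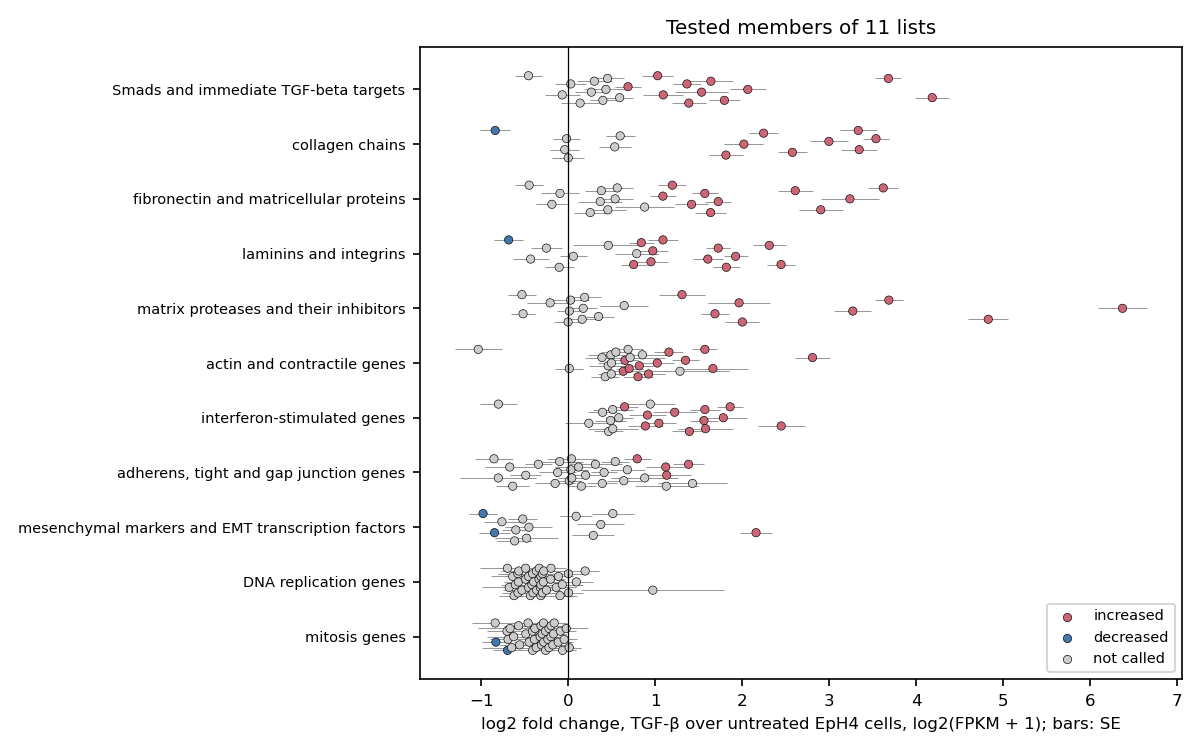
Log2 fold change (± SE, log2(FPKM + 1) scale) between TGF-β-treated and untreated EpH4 cells of each tested member of 11 lists, with increased genes in red, decreased genes in blue and genes that did not pass the limma test in grey. The red points of matrix and contractile lists reach 6.37 (Mmp9), whereas mesenchymal markers hold 1 red point (Pdgfrb, 2.16) and most points of replication and mitosis genes lie slightly below 0.

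The list of mesenchymal markers and EMT transcription factors, which does not hold Snai1, Fn1 and Acta2 since they are counted with other lists and were increased, had 13 tested members. Of these, 1 was increased and 2 were decreased, and the median was −0.48. Cdh2, which encodes N-cadherin, had 2 and 1 reads in the untreated and 4 and 1 reads in the treated libraries, a difference that is not detectable at this depth (0.09 ± 0.19, adjusted p = 0.812, 0.09 turning to −0.02 without TGF-β-treated library 1). Vim, which encodes vimentin, was at 0.939 and 0.769 FPKM without and 1.88 and 0.777 FPKM with TGF-β, with overlapping groups (0.29 ± 0.24, adjusted p = 0.528). Both markers thus stayed at or near 0 in EpH4 cells in either condition. Twist1 was at 13.8 and 17.9 FPKM without and 11.2 and 8.77 FPKM with TGF-β (−0.62 ± 0.20, adjusted p = 0.109), and Zeb1, Zeb2 and Snai2 did not reach 5 FPKM in any library. Prrx1, a homeobox factor of mesenchyme, fell by 0.98 on the log2 scale from 15.6 and 17.6 to 7.73 and 8.11 FPKM, and S100a4, a calcium-binding protein also named FSP1, fell from 138 and 135 to 79.3 and 71.9 FPKM (−0.85 ± 0.17). Pdgfrb, the PDGF receptor of mesenchymal cells, was the increased member, at 0.915 and 0.988 FPKM without and 8.24 and 7.21 FPKM with TGF-β (2.16 ± 0.18, adjusted p = 0.000545). The fibroblast and adipocyte markers summed to 30.8 and 32.6 FPKM in untreated and 248 and 224 FPKM in treated libraries, of which Col1a1 made up 18.7 and 21.2 and 224 and 200.04 FPKM, while Dcn, Lum, Thy1 and Dpt were listed at 0 FPKM in each. Fabp4, a fatty acid-binding protein of adipocytes, was lower with TGF-β, at 8.13 and 5.71 FPKM without and 0.537 and 2.53 FPKM with it, and did not pass the test (−1.75 ± 0.51, adjusted p = 0.0833), which it did with 5 FPKM added before the logarithm. Among immune markers Csf1r, the receptor of colony-stimulating factor 1, rose from 4 and 3 to 97 and 133 reads, and reached 5 FPKM only in treated EpH4 libraries (2.61 ± 0.17, adjusted p = 0.000212), while the 6 markers at 0 included Ptprc, the antigen of all white blood cells. The call of Prrx1 was lost without untreated EpH4 library 2 or either TGF-β-treated EpH4 library (highest adjusted p = 0.111). The call of S100a4 was lost without any 1 of the 4 EpH4 libraries or either untreated EpRas library (highest adjusted p = 0.183).

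Cdh1, Jup and several desmosome genes and keratins were increased, and the desmosome gene Ppl was decreased. Of 29 tested genes of adherens, tight and gap junctions, 4 were increased and none was decreased (with quantile scaling or 5 FPKM added before the logarithm 1 was, Cldn1), with a median of 0.15, and either treated library was higher than the untreated ones for 15 of the 29 and lower for 6 (30.2% and 30.4% of all genes tested). Cdh1, which encodes E-cadherin, was at 49.1 and 53.2 FPKM in the untreated and 93.7 and 84.99 FPKM in the TGF-β-treated libraries (0.79 ± 0.15, adjusted p = 0.0210). Jup, which encodes plakoglobin of adherens junctions and desmosomes, was at 59.5 and 70.2 FPKM without and 173 and 168 FPKM with TGF-β (1.38 ± 0.17, adjusted p = 0.00337). In both genes the treated libraries were the higher ones. Of 9 tested desmosome genes, Pkp1 (1.64 ± 0.29), Pkp2 (0.94 ± 0.15) and Dsp (0.60 ± 0.15) rose, whereas periplakin (Ppl), of the cornified envelope, fell from 9.50 and 10.1 to 2.41 and 1.62 FPKM (−1.85 ± 0.21, adjusted p = 0.00216). The calls of Cdh1 and Pkp1 were lost without any 1 of the 4 EpH4 libraries (highest adjusted p = 0.181 and 0.119). The call of Pkp2 was lost without untreated EpH4 library 1 or either TGF-β-treated EpH4 library (highest adjusted p = 0.102). The call of Dsp was lost without any 1 of the 4 EpH4 libraries or either untreated EpRas library (highest adjusted p = 0.335). For Dsp, the test was also missed under another setting (adjusted p up to 0.0672).

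Of 8 tested keratins, 3 were increased and none was decreased, and of the 3 Krt16 reached 5 FPKM only in treated EpH4 libraries. Krt14, the keratin of basal and myoepithelial cells, was at 327 and 386 FPKM without and 851 and 784 FPKM with TGF-β (1.20 ± 0.16, adjusted p = 0.00409). Krt16 and Krt17, keratins of activated epidermis, rose by 1.27 ± 0.19 and 0.88 ± 0.18. The simple keratins Krt8, Krt18 and Krt7 had log2 fold changes of 0.64 ± 0.39, 0.01 ± 0.25 and 0.78 ± 0.21 and did not pass the test (adjusted p = 0.376, 0.990 and 0.0690). Of the 6 tested markers of basal and myoepithelial cells, Acta2, Krt14, Krt17 and Itgb4 were increased, Acta2 having reached 5 FPKM only in treated EpH4 libraries, while Trp63, the transcription factor of basal cells, was at 7.37 and 8.60 FPKM without and 4.64 and 5.52 FPKM with TGF-β (−0.56 ± 0.17, adjusted p = 0.0856) and Krt5 stayed under 5 FPKM. Among 14 tested regulators of epithelial identity none was increased, and Klf4 and Klf5 fell, with log2 fold changes of −1.10 and −0.92. With quantile scaling 3 members were decreased, with 5 FPKM added before the logarithm 4, and with the replicate block none. Esrp2, a splicing regulator of epithelia, had a log2 fold change of 0.14 ± 0.23 (adjusted p = 0.751, −0.04 without TGF-β-treated library 2), and its relative Esrp1 one of 0.15 ± 0.22 (adjusted p = 0.730). Of 6 tested cornified envelope and kallikrein genes, Lce1f, Lce1g and Lce1h, neighbouring genes of similar sequence between which reads may be shared, rose by 2.21 ± 0.22, 1.81 ± 0.35 and 1.77 ± 0.27, while Crct1 fell from 40 and 31 to 5 and 7 reads, having reached 5 FPKM only in untreated EpH4 libraries (−1.78 ± 0.36), along with Klk10. Of the 8 tested luminal and milk genes, the lipid droplet protein Plin2 rose by 0.75 ± 0.14 and Xdh, an enzyme of milk fat secretion, fell by 1.27 on the log2 scale. The calls of Krt17, Klf5 and Plin2 were lost without any 1 of the 4 EpH4 libraries (highest adjusted p = 0.186, 0.170 and 0.161). The calls of Lce1g and Xdh were lost without untreated EpH4 library 2 or either TGF-β-treated EpH4 library (highest adjusted p = 0.156 and 0.144). The call of Krt14 was lost without TGF-β-treated EpH4 library 1 (highest adjusted p = 0.0587). The call of Krt16 was lost without untreated EpH4 library 2 or TGF-β-treated EpH4 library 2 (highest adjusted p = 0.0733). The call of Klf4 was lost without any 1 of the 4 EpH4 libraries or either untreated EpRas library (highest adjusted p = 0.205). The call of Lce1h was lost without either TGF-β-treated EpH4 library (highest adjusted p = 0.0796). The call of Crct1 was lost without untreated EpH4 library 1 or either TGF-β-treated EpH4 library (highest adjusted p = 0.156). Another scaling, filter, pseudocount or model also ended the calls of Krt17, Lce1g, Lce1h, Crct1 and Plin2 (adjusted p up to 0.418, 0.0675, 0.0501, 0.261 and 0.0720).

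**Figure D4:**
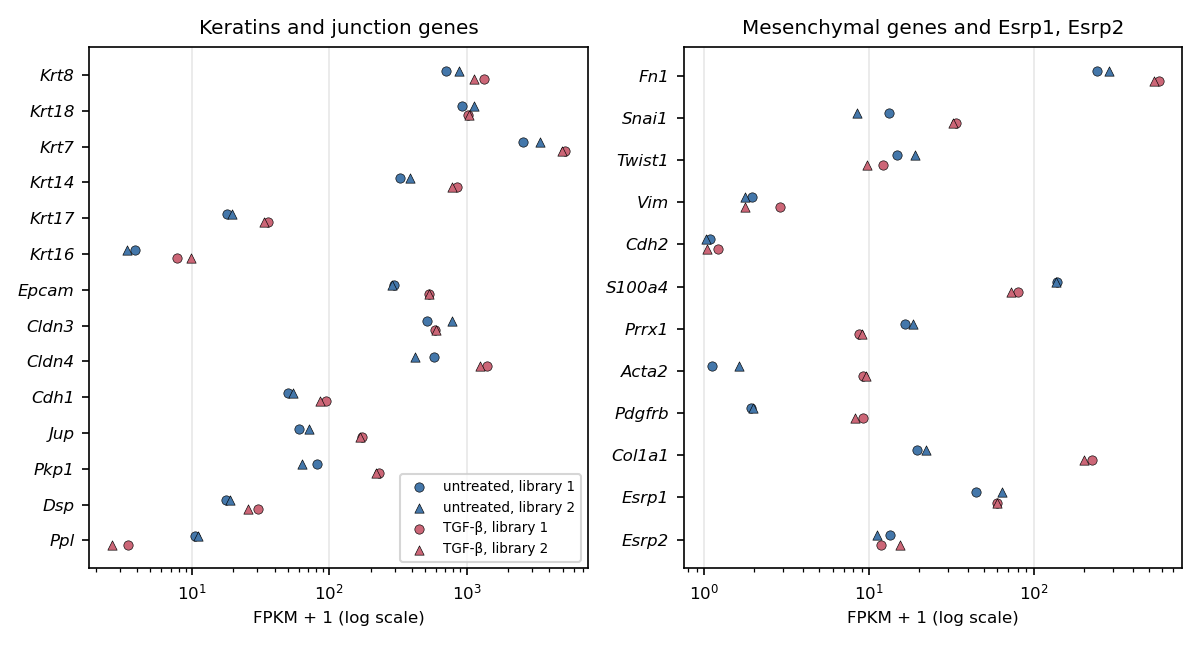
Expression level in each EpH4 library (FPKM + 1, log scale) of keratins and junction genes (left) and of mesenchymal genes with Esrp1 and Esrp2 (right), with untreated libraries in blue and TGF-β-treated ones in red. Cdh1 and Krt14 points move to the right with TGF-β, Cdh2 and Vim stay below 2 FPKM, and Col1a1 reaches 224 FPKM.

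The growth factor genes Pdgfa, Pdgfb, Pdgfc, Vegfa and Vegfc rose. In a list of the PDGF, VEGF, FGF and IGF systems, 8 of 19 tested genes were increased and 1 was decreased (median 0.59). Pdgfa, a ligand of PDGF receptors (chr5:138976014-138997370), was at 90.1 and 94.9 FPKM without and 553 and 518 FPKM with TGF-β (2.52 ± 0.14, adjusted p = 0.000128). Its relatives Pdgfb and Pdgfc rose by 2.32 ± 0.26 and 1.72 ± 0.16. Vegfa, which acts on endothelial cells, was at 38.8 and 41.1 FPKM without and 273 and 249 FPKM with TGF-β (2.68 ± 0.17, adjusted p = 0.000192), and Vegfc, of lymphatic vessels, at 12.8 and 13.8 and 58.7 and 57.4 FPKM (2.05 ± 0.17). The groups were separate for all 5 ligands, as they were for each of the 590 increased genes and, upwards, for 30.2% of all genes tested. Igfbp7, an IGF-binding protein, rose by 1.64 ± 0.17 and the VEGF co-receptor Nrp2 by 0.59 ± 0.14. The FGF receptors moved apart, as Fgfr1 rose by 1.04 ± 0.20 and Fgfr2, the receptor of epithelia, fell by 1.08 on the log2 scale and reached 5 FPKM only in untreated EpH4 libraries. The call of Nrp2 was lost without any 1 of the 4 EpH4 libraries or either untreated EpRas library (highest adjusted p = 0.258). The call of Fgfr1 was lost without any 1 of the 4 EpH4 libraries (highest adjusted p = 0.172). The call of Fgfr2 was lost without either TGF-β-treated EpH4 library (highest adjusted p = 0.0623).

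Of 20 tested genes for EGF receptors, their ligands and ERK feedback, 2 were increased and 2 decreased. Hbegf, an EGF receptor ligand, rose by 1.54 ± 0.21 from 18.6 and 15.9 to 50.4 and 53.8 FPKM and the ERK phosphatase Dusp4 by 1.63 ± 0.17. Spry1, an inhibitor of receptor kinase signalling, fell by 1.82 on the log2 scale from 53.05 and 53.1 to 15.5 and 13.2 FPKM and Errfi1, an inhibitor of the EGF receptor, fell too (−0.71 ± 0.17). Of 24 tested Wnt and Notch genes, 5 were increased and 2 decreased. Wnt11, a ligand of non-canonical Wnt signalling, was at 2.37 and 3.59 FPKM without and 38.9 and 39.5 FPKM with TGF-β (3.35 ± 0.21, adjusted p = 0.000192). Wnt9a was at 8.63 and 8.70 FPKM without and 47.5 and 49.1 FPKM with TGF-β (2.35 ± 0.13, adjusted p = 0.000153), and the Notch ligand Jag1 at 1.61 and 1.38 and 14.2 and 15.97 FPKM (2.69 ± 0.16). The receptors Fzd6 and Fzd2 rose by 1.05 ± 0.17 and 1.03 ± 0.16. Dlk2, a relative of Notch ligands, went from 305 and 389 to 8 and 18 reads or from 39.03 and 36.7 to 1.42 and 2.15 FPKM (−3.82 ± 0.21, adjusted p = 0.000128), and Sfrp1, an antagonist of Wnt, fell by 0.73 on the log2 scale. Of 26 tested guidance genes, 6 were increased, namely the semaphorin receptor Plxnd1 (2.78 ± 0.30), the netrin receptor Unc5b (1.97 ± 0.16), the ephrin Efnb1 (1.64 ± 0.21), the ephrin receptor Ephb2 (1.14 ± 0.17), and the semaphorins Sema7a (1.15 ± 0.21) and Sema4c (1.04 ± 0.19). Sema3e and Ephb6 fell, with log2 fold changes of −1.01 and −0.94. The calls of Fzd6, Fzd2, Sema7a, Sema3e and Ephb6 were lost without any 1 of the 4 EpH4 libraries (highest adjusted p = 0.119, 0.0905, 0.151, 0.118 and 0.250). The calls of Errfi1 and Sfrp1 were lost without any 1 of the 4 EpH4 libraries or either untreated EpRas library (highest adjusted p = 0.285 and 0.229). The call of Hbegf was lost without TGF-β-treated EpH4 library 2 (highest adjusted p = 0.0543). The call of Efnb1 was lost without TGF-β-treated EpH4 library 1 (highest adjusted p = 0.0515). The call of Ephb2 was lost without untreated EpH4 library 2 or either TGF-β-treated EpH4 library (highest adjusted p = 0.0769). The call of Sema4c was lost without untreated EpH4 library 1 or either TGF-β-treated EpH4 library (highest adjusted p = 0.144). Under other settings, the calls of Errfi1, Sfrp1, Sema3e and Ephb6 did not hold either (adjusted p up to 0.0530, 0.106, 0.0522 and 0.149).

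Of 19 tested chemokines and cytokines, 3 were increased, of which Ccl17 reached 5 FPKM only in treated EpH4 libraries, and 3 were decreased. Cx3cl1, a membrane-bound chemokine, was at 12.8 and 9.18 FPKM without and 50.3 and 49.9 FPKM with TGF-β (2.11 ± 0.19, adjusted p = 0.000756), and Ccl17 and Il23a (1.38 ± 0.30), a subunit of interleukin-23, were the other increases. The decreases were Cxcl3, Cxcl5 and Csf3, the granulocyte colony-stimulating factor, which went from 26.2 and 22.6 to 6.91 and 8.05 FPKM (−1.58 ± 0.21, adjusted p = 0.00435). All 3 decreased members are known to recruit or raise neutrophils. Of 8 acute phase and innate defence genes, haptoglobin (Hp) fell from 49 and 28 to 3 and 3 reads and had reached 5 FPKM only in untreated EpH4 libraries (−1.94 ± 0.37) and the receptor Tlr2 rose by 1.26 ± 0.22. Of 13 AP-1 and related factors, 1 was increased, which was Junb, and 1 was decreased. The calls of Hp and Tlr2 were lost without untreated EpH4 library 1 or either TGF-β-treated EpH4 library (highest adjusted p = 0.137 and 0.120). The call of Il23a was lost without any 1 of the 4 EpH4 libraries (highest adjusted p = 0.207). The call of Csf3 was lost without TGF-β-treated EpH4 library 1 (highest adjusted p = 0.0567). For Il23a, Hp and Tlr2, the test was also missed under another setting (adjusted p up to 0.0559, 0.102 and 0.0581).

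Of 21 tested interferon-stimulated genes, 12 were increased and none was decreased (with quantile scaling 1 was, Ifit2), and 19 of the 21 were higher in either treated library than in the untreated ones (median 0.91), beside 30.2% of all genes tested. Of the 21, 7 reached 5 FPKM only in the treated EpH4 libraries, so that the counts and the median rest partly on them. Of these 7, 6 were among the 12 increases (Irf7, Irf9, Oasl2, Parp14, Usp18 and Zbp1). Zbp1, a sensor of nucleic acids in the Z form, was at 4.76 and 2.40 FPKM in the untreated and 25.1 and 21.3 FPKM in the treated libraries (2.45 ± 0.27, adjusted p = 0.00168). Oasl2, of the oligoadenylate synthetase family, was at 2.84 and 2.27 FPKM without and 12.5 and 11.2 FPKM with TGF-β, from 49 and 53 and 156 and 208 reads (1.86 ± 0.15, adjusted p = 0.000513). The ubiquitin-like protein Isg15 was at 12.6 and 7.47 FPKM without and 34.03 and 28.3 FPKM with TGF-β (1.58 ± 0.31). These were moderate levels, and the groups did not overlap. Usp18, which removes Isg15 from proteins, rose by 1.57 ± 0.17, and the transcription factors Irf7, Irf9 and Irf1 by 1.78 ± 0.27, 0.91 ± 0.22 and 0.65 ± 0.15. The GTPases Ifi47 and Irgm1 rose by 1.56 ± 0.16 and 1.22 ± 0.25, Rtp4 by 1.39 ± 0.20, and Parp14 and Parp9 by 1.04 ± 0.19 and 0.89 ± 0.20. Of 16 tested genes of MHC class I antigen presentation, 3 were increased and none was decreased, and 15 of the 16 were higher in either treated library than in the untreated ones (median 0.58), again beside 30.2% of all genes. These 3 were Tapbpl (1.58 ± 0.17), tapasin (Tapbp, 1.38 ± 0.30) and the peptide transporter Tap1 (0.94 ± 0.17), while B2m was at 184 and 136 FPKM without and 218 and 269 FPKM with TGF-β and did not pass the test (adjusted p = 0.226). Reads of the class I heavy chain genes may be shared between near-identical copies. Cd74, the invariant chain of MHC class II, was at 5.18 and 5.41 FPKM without and 35.1 and 38.9 FPKM with TGF-β (2.59 ± 0.17, adjusted p = 0.000192). The calls of Irf7, Irgm1, Tapbp and Tap1 were lost without any 1 of the 4 EpH4 libraries (highest adjusted p = 0.0761, 0.169, 0.202 and 0.158). The calls of Irf9, Irf1 and Parp9 were lost without any 1 of the 4 EpH4 libraries or either untreated EpRas library (highest adjusted p = 0.288, 0.260 and 0.214). The calls of Isg15 and Parp14 were lost without untreated EpH4 library 2 or either TGF-β-treated EpH4 library (highest adjusted p = 0.171 and 0.153). The call of Rtp4 was lost without either TGF-β-treated EpH4 library (highest adjusted p = 0.0751). Another scaling, filter, pseudocount or model also ended the calls of Irf9, Parp14, Parp9 and Tapbp (adjusted p up to 0.0780, 0.0544, 0.0559 and 0.0592).

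Most cell cycle genes lay slightly lower in treated cells, and few passed the test. None of 43 DNA replication genes passed the limma test (3 were decreased with 5 FPKM added before the logarithm), with 17 decreased and none increased at an unadjusted p under 0.05, and 34 of the 43 had both treated libraries below both untreated ones (median −0.33). Of 40 mitosis genes 2 were decreased, the scaffold Anln (−0.83 ± 0.17) and the phosphatase Cdc25b (−0.70 ± 0.17), and 34 had the treated libraries below (median −0.31). Mki67, a marker of dividing cells, was at 21.8 and 24.6 FPKM without and 17.9 and 16.4 FPKM with TGF-β (−0.41 ± 0.16, adjusted p = 0.171). The shift was thus common to most members and small for each, beside a median of −0.02 and 30.4% below over all genes tested. Of 22 genes of the cytostatic programme, Cdkn1a, the inhibitor p21, rose by 0.70 ± 0.16 from 76.4 and 72.9 to 125 and 119.6 FPKM, and the kinase Cdk6, the cyclin Ccnd2 and the inhibitor Cdkn2c fell, with log2 fold changes of −1.21, −0.80 and −1.04, Ccnd2 having reached 5 FPKM only in untreated EpH4 libraries. Cdkn2a and Cdkn2b, inhibitors of Cdk4 and Cdk6, were listed at 0 FPKM in all 4 libraries, and Myc had a log2 fold change of −0.37 ± 0.18 (adjusted p = 0.257). None of 13 genes of the BCL2 family, which control cell death, passed the limma test (1 rose and 1 fell with 5 FPKM added), with 3 higher and 3 lower at an unadjusted p under 0.05. The calls of Anln, Ccnd2 and Cdkn2c were lost without any 1 of the 4 EpH4 libraries (highest adjusted p = 0.188, 0.188 and 0.203). The calls of Cdc25b and Cdkn1a were lost without any 1 of the 4 EpH4 libraries or either untreated EpRas library (highest adjusted p = 0.274 and 0.249). The call of Cdk6 was lost without untreated EpH4 library 2 or either TGF-β-treated EpH4 library (highest adjusted p = 0.148). Under other settings, the calls of Cdc25b, Cdk6, Ccnd2 and Cdkn2c did not hold either (adjusted p up to 0.0644, 0.0587, 0.114 and 0.0549).

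Of 29 glycolysis and hypoxia-responsive genes 2 were increased and 4 decreased. The increases were Vegfa and Pfkfb4 (1.12 ± 0.19), a regulator of glycolysis, and the decreases adrenomedullin (Adm), from 52 and 73 to 5 and 2 reads and at 5 FPKM or more only in untreated EpH4 libraries (−2.44 ± 0.22, adjusted p = 0.000756), the prolyl hydroxylase Egln3 (−0.82 ± 0.16), lactate dehydrogenase A (Ldha, −0.63 ± 0.14) and phosphofructokinase Pfkl (−0.61 ± 0.14), so that this list had no common direction. Egln3 was low in EpH4 cells, at 0.963 and 1.01 FPKM without and 0.191 and 0.064 FPKM with TGF-β. These values rest on 14 and 20 reads and 2 and 1 reads. With 5 FPKM added before the logarithm, the log2 fold change of Egln3 was −0.22. Of 26 antioxidant genes driven by Nrf2, none was increased and 4 were decreased (median −0.26). Besides Aldh3a1 these were the glutathione transferases Gstm1, from 59 and 110 to 9 and 20 reads (−1.80 ± 0.24), and Gsta4 (−1.75 ± 0.28), both members of families with close copies, and the ferritin chain Fth1, which remained at 1289 and 1523 FPKM (−0.82 ± 0.15). Of 32 genes of sterol and fatty acid synthesis, the elongase Elovl6 alone was decreased (−1.53 ± 0.23). Of 23 genes of the integrated stress response and serine synthesis, Ddit4 and Nupr1, which are induced by stress, rose by 1.31 ± 0.22 and 0.88 ± 0.20. Ribosomal protein genes (82 tested) had a median of −0.31, with Rps27 increased (1.02 ± 0.21) and Rpl22l1 decreased (−0.74 ± 0.18), and respiratory chain genes (75 tested) a median of −0.27, with Ndufa6 decreased (−0.63 ± 0.16). These medians are similar in size to those of the cell cycle lists. The calls of Pfkfb4, Egln3, Fth1, Ddit4 and Rps27 were lost without any 1 of the 4 EpH4 libraries (highest adjusted p = 0.103, 0.180, 0.164, 0.118 and 0.199). The calls of Ldha, Pfkl, Rpl22l1 and Ndufa6 were lost without any 1 of the 4 EpH4 libraries or either untreated EpRas library (highest adjusted p = 0.222, 0.240, 0.315 and 0.261). The call of Gstm1 was lost without TGF-β-treated EpH4 library 1 (highest adjusted p = 0.0537). The call of Gsta4 was lost without either untreated EpH4 library or TGF-β-treated EpH4 library 1 (highest adjusted p = 0.101). The call of Elovl6 was lost without untreated EpH4 library 1 or either TGF-β-treated EpH4 library (highest adjusted p = 0.0825). The call of Nupr1 was lost without untreated EpH4 library 2, either TGF-β-treated EpH4 library or either untreated EpRas library (highest adjusted p = 0.258). For Egln3, Ldha, Pfkl, Fth1, Nupr1, Rpl22l1 and Ndufa6, the test was also missed under another setting (adjusted p up to 0.264, 0.124, 0.0529, 0.231, 0.0849, 0.0623 and 0.0692).

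To see where the response of EpH4 cells differed from that of EpRas cells, the difference between the effects was tested in the same fit. It passed the test for 73 genes, 0.802% of those tested, of which 57 had the more positive effect in EpH4 cells (0.626%) and 16 in EpRas cells (0.176%). The count of 73 was 10 to 127 when 1 of the 8 libraries was left out. Of the 25 differences among the named genes, those of Lrrc32 and Col27a1 passed the test whichever library was left out (highest adjusted p = 0.0136 and 0.0376), while the other 23 did not pass it without TGF-β-treated EpH4 library 1 or 2, with the same direction in all fits. Lrrc32, Col27a1, Olfm2 and Ccl17 reached 5 FPKM only in treated EpH4 libraries, so that they had to be high there to be tested. In EpRas cells alone, 173 genes (1.90%) were increased and 175 (1.92%) decreased. Of the increases, 142 were shared, which is 24.1% of the EpH4 and 82.1% of the EpRas genes, and of the decreases 91, or 34.3% and 52.0%, while 3 genes were called in opposite directions. Both lines were tested with the same spread of each gene, so that their calls are not independent. Genes called in EpH4 cells alone are not for that reason different between the lines, as the number of differences shows. Col1a1 was at 1.80 and 1.57 FPKM in untreated and 1.59 and 2.78 FPKM in treated EpRas libraries, where its log2 fold change was 0.22 (adjusted p = 0.692), against 3.34 in EpH4 cells (difference EpRas minus EpH4 −3.12 ± 0.29, adjusted p = 0.00729). For Lrrc32 the EpRas libraries held 1 and 0 reads without and 1 and 1 reads with TGF-β (difference −3.56 ± 0.22, adjusted p = 0.00123), so that it was increased in EpH4 cells and nearly silent in EpRas cells. Col27a1 had 4 and 1 and 18 and 21 reads in EpRas cells (difference −2.98 ± 0.22, adjusted p = 0.00257), and Olfm2 0 and 3 and 5 and 9 reads (difference −3.57 ± 0.39, adjusted p = 0.0115). Ccl17, with 2 and 9 and 3 and 2 reads in EpRas cells, had a fitted difference of −3.85 ± 0.44 (adjusted p = 0.0130). With 0.1 FPKM added before the logarithm in place of 1, the differences of Olfm2 and Ccl17 did not pass the test (adjusted p = 0.366 and 0.0702).

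The remaining differences among the 10 largest were those of Pdgfrb, Pdgfrl, Cd74, Aqp1 and Cox7a1. Pdgfrb was at 7.14 and 8.11 FPKM in untreated and 3.81 and 5.34 FPKM in treated EpRas cells (log2 fold change −0.64, adjusted p = 0.124), whereas it rose by 2.16 in EpH4 cells (difference −2.80 ± 0.26, adjusted p = 0.00636). Pdgfrl, a soluble relative of this receptor, was at 12.3 and 7.17 FPKM without and 50.9 and 51.4 FPKM with TGF-β in EpH4 cells (2.32 ± 0.23) and at 5.67 and 5.19 and 1.94 and 2.11 FPKM in EpRas cells (−1.09, adjusted p = 0.0489), and thus changed in opposite directions (difference −3.41 ± 0.32). Cd74 had a log2 fold change of −0.06 in EpRas cells (difference −2.65 ± 0.23, adjusted p = 0.00608). Aqp1, a water channel, was at 18.6 and 15.9 FPKM without and 12.9 and 13.7 FPKM with TGF-β in EpH4 cells and did not pass the test there (−0.35 ± 0.17, adjusted p = 0.267). In EpRas cells it was at 12.5 and 14.4 FPKM without and 0.931 and 0.599 FPKM with TGF-β (−3.03, difference −2.68 ± 0.24). Cox7a1, a subunit of the respiratory chain in muscle, rested on 0 and 0 reads without and 2 and 2 reads with TGF-β in EpH4 cells, too few for a fold change. Its call in EpH4 cells (adjusted p = 0.0101) was lost without either untreated or the first treated library and with 5 FPKM added before the logarithm. For Mmp9, Ctgf and Cdh1, the difference between the lines did not pass the test (adjusted p = 0.0537, 0.0635 and 0.0705).

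**Figure D5:**
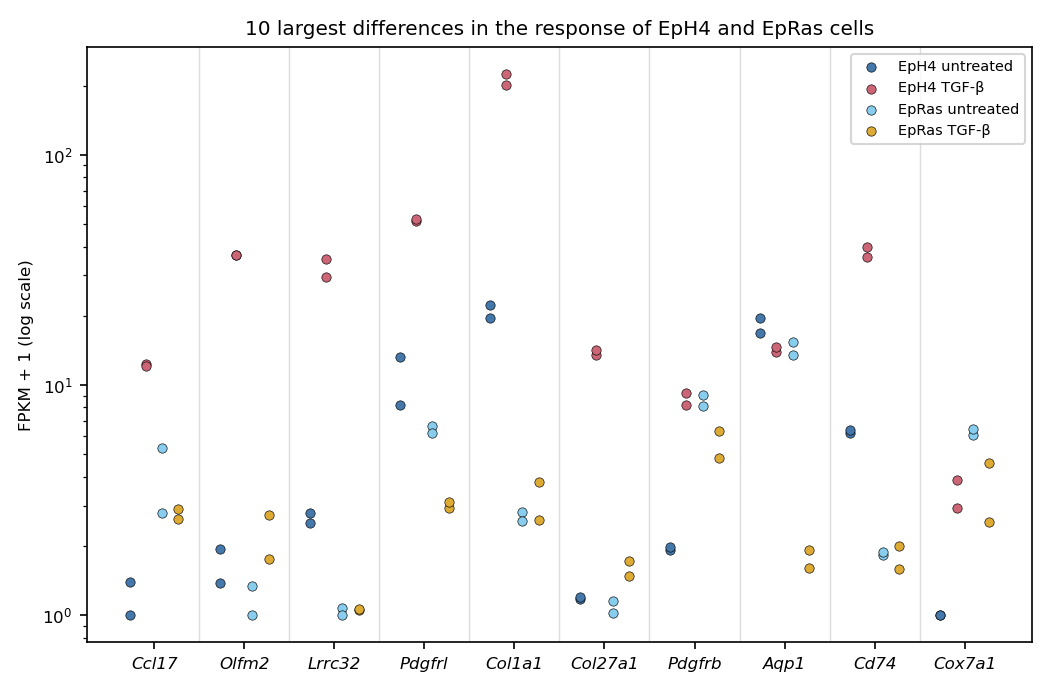
Expression level in each library (FPKM + 1, log scale) of the 10 genes with the largest difference in response between EpH4 and EpRas cells, with 2 points per group. In EpH4 cells 9 of the 10 genes are higher with TGF-β (red over dark blue), while in EpRas cells the treated points (yellow) lie below, among or slightly above the untreated ones (light blue).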

How the data were processed

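mRNA was isolated from EpH4 and EpRas cells, and directional libraries were sequenced on the Ion Proton. The authors aligned the reads to mm10 with TopHat2 (version 2.0.11, with Bowtie2, in the submitters' processing notes) and calculated FPKM for each gene and library with Cuffdiff of Cufflinks 2.2.0. The deposited FPKM are scaled to gene length and library total, so that a rise of abundant genes lowers the others. Whether the strand was used in counting is not given in the sources used here, so that reads of overlapping antisense genes cannot be told apart. The table lists 23284 genes. Otud4, Rn45s and Serbp1 had no OK status in at least 1 library (3 genes) and were left out, and all columns of values of single samples were assigned (0 left). The separate table of siRNA-transfected EpRas cells was not used here. Values of some genes are counted in the lists but not reported here.

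Groups were taken from the labels. Genes with a maximum of at least 5 FPKM over the 8 untransfected libraries were compared in R 4.3.3 by linear models of limma 3.58.1 with moderated variance, fitted to log2(FPKM + 1) as 4 group means without a block, with 4 residual degrees of freedom and Benjamini-Hochberg adjustment over 9100 genes. The fit was also run on simulated data in which a gene had the same spread in all groups, so that unequal spreads were not tested. Whole reads were recovered for 2783 genes from the steps between FPKM that were whole within 0.03 reads. Python 3.11.15 with numpy 2.4.6 and pandas 2.3.3 was used for other calculations. Gene positions are those of GENCODE on mm10, and promoters those of RefSeq on GRCm38.p6.

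Named genes were the 15 largest increases and decreases whose treated libraries lay beyond both untreated ones (leaving out microRNA, snoRNA and unnamed genes), up to 5 called members of each list, the 10 largest differences between the lines, and Cdh1, Cdh2, Fn1 and Esrp2. Other list members were added after their values were seen. The members of the comparison and the gene lists were chosen with earlier results of these data known, and no list was tested as a set. Alternatives were another pseudocount (0.1 or 5 FPKM), no filter or a mean of at least 10 FPKM, median or quantile scaling, a fit of the 4 EpH4 libraries, a mean-variance trend, the replicate number as a block and the omission of each library.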

Additional observations from a re-analysis of the deposited data

Results flagged for a closer look

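Of the named genes, 25 responded differently in the 2 lines by the limma test of the difference itself, and values are the log2 effect of TGF-β in EpRas cells minus that in EpH4 cells. Without TGF-β-treated EpH4 library 1 or 2, Lrrc32 and Col27a1 alone passed this test (2 of 25), and Oasl2, Usp18 and Errfi1 did not pass it whichever of the 8 libraries was left out (highest adjusted p = 0.240, 0.206 and 0.280). At a pseudocount of 0.1 FPKM, 16 of the 25 passed it, and those that did not include Adamts4, Olfm2 and Ccl17 (adjusted p = 0.275, 0.366 and 0.0702). Lrrc32, Col27a1, Ccl17, Olfm2, Gpr123, Col1a2, Col4a4, Acta2, Csf1r, Oasl2 and Usp18 reached 5 FPKM only in treated EpH4 libraries. These genes had to be high there to be tested. Among matrix and contractile genes the difference was −3.12 ± 0.29 for Col1a1, −2.23 ± 0.28 for Col1a2, −2.98 ± 0.22 for Col27a1, −1.89 ± 0.23 for Col4a4, −2.38 ± 0.29 for Acta2, −2.44 ± 0.32 for Adamts4 and −2.03 ± 0.33 for Mgp. Of these, Adamts4 was increased in EpRas cells too, by 2.38 (adjusted p = 0.00200), and Mgp was decreased in both lines, with a log2 fold change of −4.56 in EpRas cells, whereas Acta2 and Col4a4 did not pass the test there (0.43 and 0.69, adjusted p = 0.380 and 0.0775). The difference of Mgp (limma adjusted p = 0.0496) was lost under other settings, among them a pseudocount of 0.1 FPKM (adjusted p up to 0.152). Treated libraries held 1 and 2 reads of Mgp in EpH4 cells and 2 and 2 in EpRas cells.

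Among ligands, receptors and surface proteins it was −3.85 ± 0.44 for Ccl17, −3.57 ± 0.39 for Olfm2, −3.56 ± 0.22 for Lrrc32, −3.41 ± 0.32 for Pdgfrl, −2.80 ± 0.26 for Pdgfrb, −2.65 ± 0.23 for Cd74, −2.59 ± 0.27 for Cx3cl1, −2.34 ± 0.19 for Wnt9a, −1.997 ± 0.24 for Csf1r, −1.44 ± 0.20 for Mcam and −1.67 ± 0.21 for Gpr123. Dlk2 differed by 2.41 ± 0.30, as it fell less in EpRas cells. Errfi1, which fell in EpH4 cells, rose by 0.83 in EpRas cells (difference 1.54 ± 0.25, adjusted p = 0.0472). The interferon-stimulated genes Oasl2 and Usp18 differed by −1.44 ± 0.22 and −1.71 ± 0.25, with 2 and 5 and 2 and 2 reads of Usp18 in EpRas cells without and with TGF-β. Krt14 rose in EpH4 and fell in EpRas cells (difference −1.98 ± 0.22, adjusted p = 0.0127). The difference of Aqp1 was −2.68 ± 0.24. The fitted difference of Cox7a1, −2.62 ± 0.40, rests on at most 6 reads in a library, depends on the value added before the logarithm and is no measure of a fold change.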

How the results depend on the processing

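The 590 increases and 265 decreases in EpH4 cells stayed within 1.5 times under other pseudocounts, without a filter, with median or quantile scaling, with the 4 EpH4 libraries alone and with a trend, except that 159 decreases were called among the 6187 genes with a mean of at least 10 FPKM, where fewer genes were tested. Replicate numbers did not mark pairs (correlation of the deviations of untreated and treated EpH4 libraries −0.01118), and the replicate block, which uses up degrees of freedom, gave 406 increases, 141 decreases and 31 differences between the lines and ended the calls of 24 named genes, among them Cdh1, beside the settings named in the report. The 73 differences were 117 without a filter, 24 with a mean of at least 10 FPKM and 45 with a trend, for which the cause was not tested. Leaving out 1 library at a time gave 183 to 711 increases, 56 to 374 decreases and 10 to 127 differences. The lowest counts came without TGF-β-treated EpH4 library 1, whereas 711 and 374 came without a treated EpRas library, and each such fit has fewer samples. The log2 fold change of Cdh2 was −0.0228 to 0.2044 and that of Esrp2 −0.0415 to 0.3300 when a library was left out. Of 142 called named genes, 103 could be tested under all 17 alternatives and 39, with a mean under 10 FPKM, under 16, and 50 and 24 of them passed the test in each, none changed direction and 64 lost the call without TGF-β-treated EpH4 library 1. The shallowest EpH4 library (relative depth 0.722) limits the precision of genes with a few reads, such as Ccl17 and Cox7a1, and no test can tell technical from biological spread between the 2 libraries of a group.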
